A study of Mus musculus with 12 samples.

Results

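Cultured primary mouse hepatocytes that had received manganese and then forskolin and dexamethasone (FDMn) were compared with untreated hepatocytes (Mock), gene by gene. The comparison used 6 of the 12 libraries of the series, chosen by their treatment label, with 3 libraries in each group, and no library given forskolin and dexamethasone alone entered it. The question was how much of the fasting-hormone response was present in cells given manganese, and which genes stood beyond their untreated level. In both groups wild-type hepatocytes were isolated with collagenase in 2 steps from a C57/Bl6J mouse, plated in medium with serum and then kept without serum for 16 h overnight. The FDMn cells had 6 µM manganese chloride (MnCl2) over those 16 h, and 10 µM forskolin with 1 µM dexamethasone for the 5 h before lysis. Mock cells had none of the 3 agents, and the titles of both groups name no insulin, although the protocol text speaks of insulin without saying which groups had it. The sources used here give neither the animal's age and sex nor whether manganese stayed on during the last 5 h.

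The libraries were made from poly-A RNA. The labels speak of 1 animal and do not say whether replicates were separate preparations, so p-values measure the spread between these libraries, which may be technical. Forskolin, dexamethasone and manganese were all absent from Mock, so what each contributed to a difference cannot be told apart. Values are in TPM, transcript abundance as a share of the library's total, so that a rise in abundant transcripts lowers the value of the others.

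In fasting, glucagon and glucocorticoids act together on the liver. Glucagon raises cAMP in the hepatocyte, which activates protein kinase A and the transcription factor CREB, while glucocorticoids activate their own receptor, and the pair switches on glucose production, breakdown of amino acids and disposal of their nitrogen as urea. Forskolin stands in for glucagon by activating adenylate cyclase directly, and dexamethasone is a synthetic glucocorticoid. Insulin opposes this program, in part by removing FOXO transcription factors from the nucleus. Manganese is an essential trace metal that serves as cofactor of arginase, glutamine synthetase, pyruvate carboxylase and mitochondrial superoxide dismutase, and the liver clears its excess.

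Promoter sequences are shown for 7 genes whose values open the results by role: Pck1, the rate-controlling enzyme of gluconeogenesis; Sgk1, a kinase gene under the glucocorticoid receptor; Nr4a3, Dusp1 and Junb, cAMP-responsive genes, the last of which was lower in FDMn than in Mock; and the metallothionein genes Mt1 and Mt2. Each is the 250 bases before the RefSeq start of the gene on build GRCm38.p6, read 5′ to 3′ on the gene's strand, and positions count backwards from that start. Capitals mark matches, on either strand, to the CREB core TGACG in Pck1, Nr4a3, Dusp1 and Junb, to the palindromic glucocorticoid response element (6 bases, a gap of 3 and the reverse complement of the 6) in Sgk1, and to the metal-response core (TGCGCNC or TGCACNC) in Mt1 and Mt2.
Pck1: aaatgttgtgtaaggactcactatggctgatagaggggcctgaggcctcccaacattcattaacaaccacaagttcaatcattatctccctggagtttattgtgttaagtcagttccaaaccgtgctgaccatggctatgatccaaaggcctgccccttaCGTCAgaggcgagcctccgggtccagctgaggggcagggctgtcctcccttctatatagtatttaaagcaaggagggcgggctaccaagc
Nr4a3: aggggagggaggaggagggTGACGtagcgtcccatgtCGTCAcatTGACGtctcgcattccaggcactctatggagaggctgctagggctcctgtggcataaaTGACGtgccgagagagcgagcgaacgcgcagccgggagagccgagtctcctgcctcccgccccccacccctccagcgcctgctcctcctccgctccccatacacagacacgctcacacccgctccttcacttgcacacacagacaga
Dusp1: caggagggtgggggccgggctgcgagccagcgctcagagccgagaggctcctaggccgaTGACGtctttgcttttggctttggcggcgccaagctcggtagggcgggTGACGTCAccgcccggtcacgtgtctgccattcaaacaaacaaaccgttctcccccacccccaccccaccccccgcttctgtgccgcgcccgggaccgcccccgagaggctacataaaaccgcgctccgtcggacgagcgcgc
Junb: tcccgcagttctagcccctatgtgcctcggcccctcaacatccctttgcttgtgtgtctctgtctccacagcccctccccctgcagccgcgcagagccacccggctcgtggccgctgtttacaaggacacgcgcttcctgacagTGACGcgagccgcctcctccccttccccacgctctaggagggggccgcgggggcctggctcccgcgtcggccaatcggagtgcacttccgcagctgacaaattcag
Sgk1: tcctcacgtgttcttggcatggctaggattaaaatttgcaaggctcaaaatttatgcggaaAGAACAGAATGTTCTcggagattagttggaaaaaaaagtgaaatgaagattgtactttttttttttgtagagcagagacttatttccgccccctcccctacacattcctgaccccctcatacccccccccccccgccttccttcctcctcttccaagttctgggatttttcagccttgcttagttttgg
Mt1: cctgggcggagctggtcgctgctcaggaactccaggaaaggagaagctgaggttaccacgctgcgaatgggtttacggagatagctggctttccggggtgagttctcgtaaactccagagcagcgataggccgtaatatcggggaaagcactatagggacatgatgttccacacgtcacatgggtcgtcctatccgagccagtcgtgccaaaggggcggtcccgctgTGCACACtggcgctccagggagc
Mt2: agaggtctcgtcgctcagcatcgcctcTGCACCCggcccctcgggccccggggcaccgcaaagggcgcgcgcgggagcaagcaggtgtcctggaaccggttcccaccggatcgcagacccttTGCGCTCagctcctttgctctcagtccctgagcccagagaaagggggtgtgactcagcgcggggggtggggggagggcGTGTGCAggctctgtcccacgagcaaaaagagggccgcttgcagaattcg

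The Pck1 window lies at chr2:173152823-173153072 on the plus strand and holds 1 match, beginning at −90. Nr4a3 (chr4:48045055-48045304, plus strand) holds 4, at −231, −213, −205 and −147. The gene coordinates given below start Nr4a3 inside this window, before the match at −147. Dusp1 (chr17:26508473-26508722, minus strand) holds matches at −191, −143 and −140, of which the last 2 overlap within 1 full cAMP response element, TGACGTCA, at −143. Junb (chr8:84978749-84978998, minus strand) holds 1 match at −106. Sgk1, which has several annotated starts, holds its palindrome at −189 of the window chr10:21993640-21993889 on the plus strand. Mt1 (chr8:94178839-94179088, plus strand) holds 1 metal-response core at −23, and Mt2 (chr8:94172368-94172617, plus strand) holds 3, at −223, −128 and −50.

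Of the 32851 promoter windows of that length, 17.8% hold TGACG, 1.55% hold TGACGTCA, 21.4% hold a metal-response core and 0.0091% (3 windows) hold the palindrome. Of the 14 cAMP target genes that were higher in FDMn, 12 had a promoter entry and 8 of them held TGACG. So did 1 of the 2 that were lower (Junb) and all 3 that did not pass the test. Of the 10 metal genes that were higher, 7 had an entry and 4 held the metal-response core, as did 1 of 4 that were lower and 3 of 7 that did not pass. Of the 18 glucocorticoid targets that were higher, 17 had an entry and 1, Sgk1, held the palindrome. These matches are counts of letters and no evidence of binding.

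Each library had 11003 to 11161 genes with a TPM of at least 1. The 50 highest genes took 37.9% to 38.4% of the transcripts in Mock and 41.0% to 41.6% in FDMn, and transcripts encoded in mitochondria took 12.3% to 12.9% and 14.7% to 15.5%. Across genes, replicates correlated with r of 0.985 to 0.987 in Mock and 0.990 to 0.992 in FDMn, and libraries of different groups with 0.951 to 0.957. All 20 genes of the hepatocyte list were measured, and their summed level was 42430 to 44968 TPM in Mock and 49712 to 50383 TPM in FDMn. The 10 Kupffer cell markers summed to 3.94 to 5.51 TPM in Mock and 7.06 to 8.23 TPM in FDMn, the 11 endothelial markers to 24.7 to 25.7 TPM and 31.1 to 34.2 TPM, and the 7 lymphocyte markers to at most 0.409 TPM, with Nkg7 listed at 0 in all 6 libraries. The endothelial markers had no common direction. In the test given below, 2 of the 7 tested were higher, 2 lower and 3 did not pass. Lyve1 (means of 1.43 TPM in Mock and 6.83 TPM in FDMn) and Pecam1 were higher, and Fcgr2b (2.28 and 0.544 TPM) and Eng lower. The calls of Pecam1 and Eng were lost with no filter. The summed level of the 11 stellate cell markers fell, from 55.6 to 59.0 TPM in Mock to 20.6 to 21.1 TPM in FDMn, mostly through Tagln. The 8 cholangiocyte markers summed to 1105 to 1151 TPM in Mock and 1421 to 1614 TPM in FDMn, mostly through Spp1, while Cftr was listed at 0 in all 6. In bulk RNA, fewer cells of a type and less RNA per cell cannot be told apart.

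Of 11192 genes tested, 1403 (12.5%) were higher and 3639 (32.5%) lower in FDMn than in Mock, so that 45.1% passed the test in 1 direction or the other (limma on log2(TPM + 1), Benjamini-Hochberg adjusted p below 0.05). By at least 2-fold on that scale, 361 were higher and 384 lower. The median log2 difference (FDMn minus Mock) over all genes was −0.15. Rescaling the libraries by median-of-ratios size factors moved that median to 0.00 and gave 2230 genes higher and 2146 lower, and quantile normalization gave 2013 and 2386. Lower genes were thus 72.2% of the calls on TPM as deposited, 49.0% after median-of-ratios scaling and 54.2% after quantile normalization. Small negative log2 differences are therefore read against −0.15 below, and counts of list members against 12.5% higher and 32.5% lower. The median of each list is given, except for the cell type markers.

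**Figure D1:**
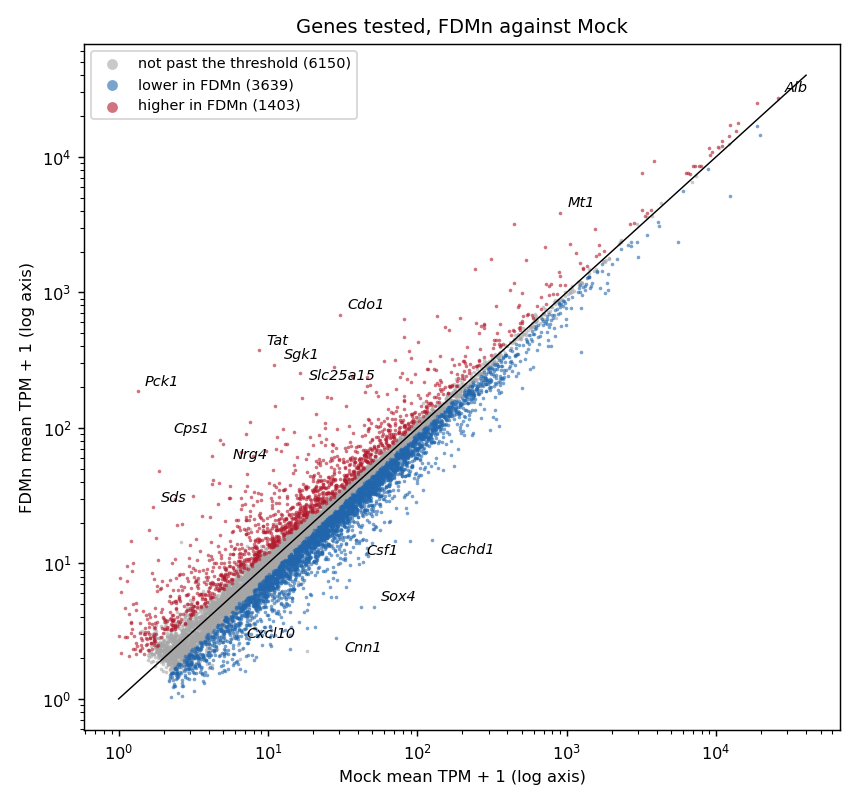
Mean TPM + 1 of every gene tested in Mock (x axis, log scale) and in FDMn (y axis, log scale), one point per gene, with the line of equality. Red points are the 1403 genes higher in FDMn, blue points the 3639 lower and grey points the 6150 that did not pass the test; Pck1 lies farthest above the line among the labelled genes, and Sox4 and Cnn1 lie far below it.

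Fasting genes stood above their untreated level more often than below it in manganese-treated cells, by widely different amounts. Over 6 lists of fasting genes (glucose output, urea cycle, amino acid breakdown, and targets of cAMP, of the glucocorticoid receptor and of FOXO), 112 of 114 different genes were tested. Among them 73 were higher in FDMn against 12.5% of all genes, 15 were lower against 32.5%, and 24 did not pass. The median log2 difference of the 112 was 0.73, and 45 were higher and 5 lower by at least 2-fold. The 3 FDMn values did not overlap the 3 Mock values for 96 of the 112, against 56.0% of all genes tested. Median-of-ratios scaling gave 80 higher and 10 lower.

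Of 21 genes of glucose output tested, 15 were higher, 2 lower and 4 did not pass, with a median log2 difference of 0.60. Pck1, which makes phosphoenolpyruvate from oxaloacetate, stood at 0.243, 0.245 and 0.540 TPM in the 3 Mock libraries and at 177, 200 and 179 TPM in the 3 FDMn libraries. The groups lay 541-fold apart, with means of 0.343 ± 0.171 and 185 ± 12.8 TPM (SD, n = 3 each), and the log2 difference was 7.12 ± 0.11 (SE, limma adjusted p = 1.65e-08), the highest under the rule for naming genes. G6pc, whose enzyme releases free glucose from glucose-6-phosphate, measured 0.0900, 0.445 and 0.235 TPM in Mock and 10.1, 8.46 and 8.58 TPM in FDMn. It was 35.3-fold higher by group means (log2 difference 3.01 ± 0.16, adjusted p = 5.15e-06), and no libraries of the groups overlapped. The coactivator Ppargc1a, which drives both genes with FOXO1 and HNF4A, was at 0.834, 0.793 and 0.747 TPM in Mock and 13.3, 15.7 and 14.4 TPM in FDMn, an 18.3-fold difference (adjusted p = 9.73e-07).

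Of the transaminases that feed carbon into the pathway, Got1 and Gpt2 stood well above Mock. Gpt (log2 difference 0.30) was higher by less and Got2 (0.06) did not pass, both chosen after their values were seen. Got1, the cytosolic aspartate transaminase, was at 75.2, 84.3 and 82.2 TPM in Mock and 488, 490 and 423 TPM in FDMn, 5.80-fold higher (adjusted p = 2.81e-07). Gpt2, the mitochondrial alanine transaminase, was 3.61-fold higher at 537 to 578 TPM in FDMn. Among members chosen after their values were seen, the glucose-6-phosphate transporter Slc37a4 was 3.03-fold higher, while pyruvate carboxylase (Pcx), itself a manganese enzyme, measured 39.2 TPM in Mock and 37.9 TPM in FDMn (adjusted p = 0.612). Genes of glycerol use went both ways. Glycerol kinase (Gk), chosen after its values were seen, had 5.55 to 8.87 TPM in Mock and 11.4 to 13.1 TPM in FDMn (1.70-fold, adjusted p = 0.00689). The 2 members below Mock were Aqp9 and Gpd1. Aqp9, the glycerol channel, fell from 59.1, 60.1 and 61.9 TPM to 35.9, 35.1 and 36.6 TPM (log2 difference −0.74, adjusted p = 3.52e-05). Gpd1, cytosolic glycerol-3-phosphate dehydrogenase, fell from 66.5, 57.2 and 61.8 TPM to 33.9, 31.3 and 32.5 TPM (log2 difference −0.90, adjusted p = 5.01e-05).

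**Figure D2:**
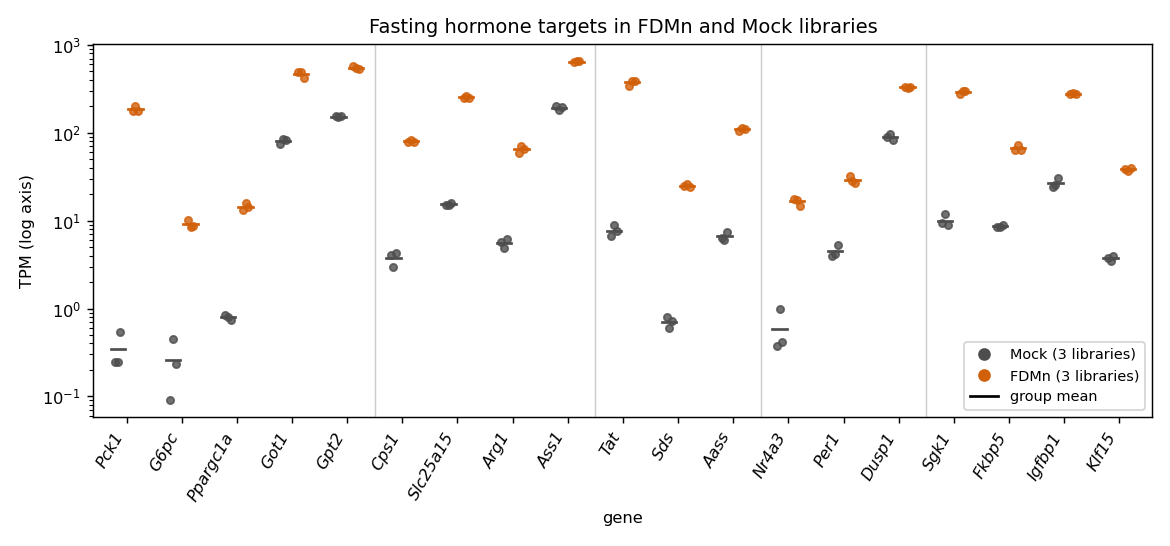
TPM on a log axis for 19 fasting genes that were higher in FDMn, one point per library and a bar at each group mean, with genes of glucose output, the urea cycle, amino acid breakdown, cAMP targets and glucocorticoid targets from left to right. No FDMn point falls among the Mock points of its gene, and Pck1 and G6pc start below 1 TPM in all 3 Mock libraries.

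Most genes of the urea cycle and ammonia handling were higher, and the rest stood at or below Mock. Of 12 genes of urea synthesis and ammonia handling, 8 were higher and 3 lower, 1 did not pass, and the median log2 difference was 0.77. Cps1, which makes carbamoyl phosphate and starts the cycle (chromosome 1, 67123026 to 67231259 on GRCm38), was at 4.10, 2.94 and 4.24 TPM in Mock and 78.1, 83.1 and 77.9 TPM in FDMn. It was 21.2-fold higher, with a log2 difference of 4.09 ± 0.12 (adjusted p = 2.97e-07). Slc25a15, the ornithine carrier of the mitochondrial membrane (chromosome 8, 22375551 to 22398597), had 15.0, 15.2 and 15.8 TPM in Mock and 251, 263 and 247 TPM in FDMn, 16.5-fold higher (log2 difference 3.96 ± 0.05, adjusted p = 1.22e-08). Arg1, the manganese-dependent arginase that releases urea, was at 5.64, 4.95 and 6.25 TPM in Mock and 59.5, 70.0 and 65.9 TPM in FDMn, 11.6-fold higher (adjusted p = 3.83e-07). The groups were far apart for all 3 genes. The glutamate carrier Slc25a22 was 10.5-fold and argininosuccinate synthetase (Ass1) 3.38-fold higher.

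Of the other members, Gls2, Slc25a13 and Nags, chosen after their values were seen, were 2.06-fold, 1.48-fold and 1.49-fold higher, and 4 stood at or below their Mock level. Argininosuccinate lyase (Asl), chosen after its values were seen, measured 55.6 TPM in Mock and 55.0 TPM in FDMn (adjusted p = 0.898). Otc, which joins carbamoyl phosphate to ornithine, fell from 21.3, 18.6 and 20.6 TPM to 16.2, 17.4 and 15.5 TPM (log2 difference −0.29, adjusted p = 0.0272). That call is close to the shift of all genes and was lost with both other scalings, with the replicate number as a block (adjusted p = 0.0636) and without Mock replicate 1, Mock replicate 3, FDMn replicate 1 or FDMn replicate 3. Glutamate dehydrogenase (Glud1) had 378, 368 and 373 TPM in Mock and 331, 324 and 330 TPM in FDMn, a log2 difference of −0.18 that was −0.02 with median-of-ratios scaling (adjusted p = 0.707). Glul, the manganese-dependent glutamine synthetase that fixes ammonia in hepatocytes around the central vein, fell further, from 36.3, 26.4 and 31.8 TPM to 12.9, 17.0 and 14.4 TPM. Its log2 difference was −1.04 ± 0.14 (adjusted p = 0.000623), and no libraries of the groups overlapped.

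Several enzymes that open the breakdown of an amino acid stood far above Mock. Of 29 genes, 15 were higher, 4 lower and 10 did not pass, with a median log2 difference of 0.31. Tat, tyrosine transaminase and a classic glucocorticoid target, was at 6.66, 8.89 and 7.58 TPM in Mock and 345, 390 and 386 TPM in FDMn, 48.5-fold higher (log2 difference 5.43 ± 0.10, adjusted p = 4.19e-08). Sds, which turns serine into pyruvate, had 0.792, 0.602 and 0.730 TPM in Mock and 24.9, 26.4 and 24.0 TPM in FDMn, 35.4-fold higher (adjusted p = 2.36e-07). The groups did not come near each other for either gene. Aass, which starts lysine breakdown, was 16.6-fold higher at 105 to 113 TPM. Cdo1, which oxidises cysteine and is outside the list, was among the genes with the highest log2 differences, at 27.1, 30.1 and 31.1 TPM in Mock and 666, 682 and 702 TPM in FDMn (23.2-fold, adjusted p = 1.22e-08). Of members chosen after their values were seen, Mat1a, which makes S-adenosylmethionine, was 4.36-fold higher, tryptophan dioxygenase (Tdo2) 2.81-fold, Ahcy 2.39-fold and Cbs 2.13-fold.

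Enzymes of later steps made up the 4 members below Mock, and the kynurenine branch of tryptophan breakdown gave 2 of the 4. Kynu, kynureninase, fell from 23.5, 24.5 and 21.8 TPM to 10.3, 8.02 and 11.1 TPM (log2 difference −1.18, adjusted p = 0.00019). Kmo, kynurenine monooxygenase, fell from 6.83, 6.63 and 6.93 TPM to 3.17, 5.15 and 4.25 TPM (log2 difference −0.60, adjusted p = 0.0139). Both genes kept their groups apart, whereas Tdo2, the first enzyme of the same route, was higher. Uroc1 of histidine breakdown (log2 difference −0.39, adjusted p = 0.034) and Bckdha of branched-chain keto acid breakdown (−0.30, adjusted p = 0.0179) lost their calls with either other scaling and with several single libraries left out. Without them the list had 2 lower members, which was also the count without Mock replicate 3, FDMn replicate 1 or FDMn replicate 3.

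**Figure D3:**
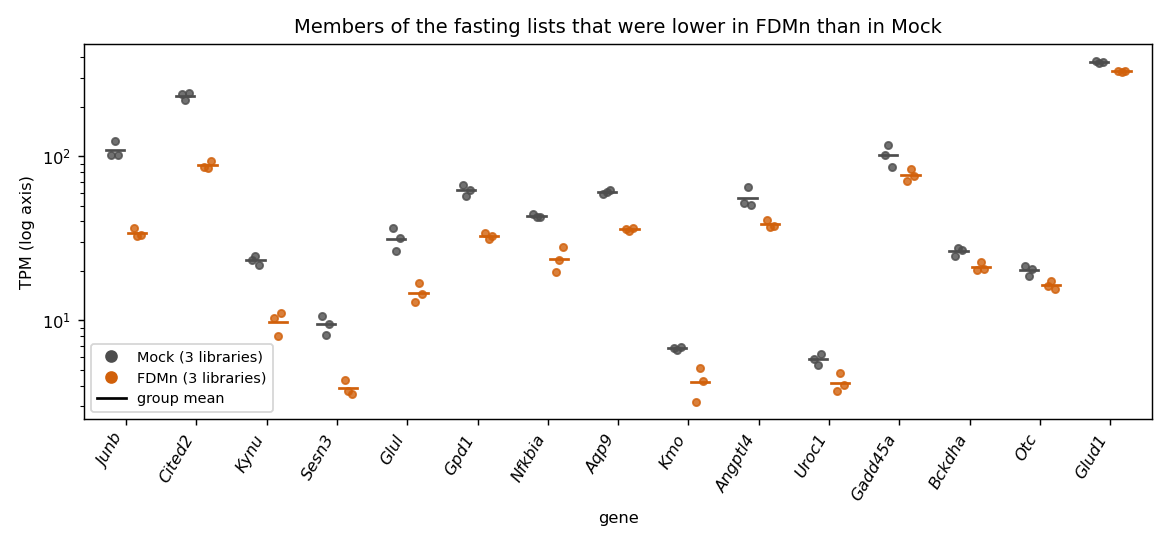
TPM on a log axis for the 15 members of the fasting lists that were lower in FDMn than in Mock, one point per library and a bar at each group mean, ordered by log2 difference. Junb and Cited2 stand farthest below Mock and Glud1 at the right end differs least.

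Targets of cAMP and CREB were mostly higher, with a pair of transcription regulators below Mock. Of 19 tested, 14 were higher, 2 lower and 3 did not pass, with a median log2 difference of 0.99. Nr4a3, an orphan nuclear receptor (chromosome 4, 48045153 to 48086447), was at 0.377, 0.977 and 0.416 TPM in Mock and 17.8, 17.2 and 14.8 TPM in FDMn, 28.1-fold higher (log2 difference 3.48 ± 0.17, adjusted p = 3.45e-06). Its relatives Nr4a1 (4.30 and 4.12 TPM, adjusted p = 0.779) and Nr4a2 (3.16 and 3.80 TPM, adjusted p = 0.233), chosen after their values were seen, did not pass, so the 3 members of that family did not share one result. The clock repressor Per1 was at 3.94, 4.17 and 5.28 TPM in Mock and 32.0, 28.5 and 27.2 TPM in FDMn, 6.55-fold higher (adjusted p = 3.45e-06). The phosphatase Dusp1, whose promoter window holds the full cAMP response element shown above, was at 89.1, 97.0 and 83.3 TPM in Mock and 328, 324 and 334 TPM in FDMn, 3.66-fold higher (log2 difference 1.86 ± 0.06, adjusted p = 5.03e-07).

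Members of the cAMP feedback loop chosen after their values were seen were also higher. The kinase Sik1 was 2.59-fold higher and Crem, whose gene encodes the repressor ICER, 2.14-fold. Rgs2, which dampens G-protein signalling, was listed at 0, 0 and 0.0616 TPM in Mock and at 5.93, 6.22 and 8.43 TPM in FDMn (adjusted p = 7.71e-06). The AP-1 genes went both ways. Fos, chosen after its values were seen, had 1.43, 0.795 and 1.88 TPM in Mock and 9.58, 12.9 and 7.09 TPM in FDMn, 7.20-fold higher (adjusted p = 0.000258). Junb fell from 101, 123 and 101 TPM to 36.3, 32.8 and 32.9 TPM, with a log2 difference of −1.64 ± 0.09 (adjusted p = 7.05e-06) and wide separation of the groups. Cited2, a coregulator that competes for CBP and p300, fell from 237, 218 and 241 TPM to 86.0, 84.1 and 93.8 TPM (log2 difference −1.39, adjusted p = 2.18e-06).

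The glucocorticoid receptor list had the highest median of all lists, 1.78. Of 22 genes tested, 18 were higher, 3 lower and 1 did not pass. Sgk1 had 9.40, 11.8 and 8.91 TPM in Mock and 279, 296 and 301 TPM in FDMn, 29.0-fold higher (log2 difference 4.74 ± 0.10, adjusted p = 7.56e-08). Fkbp5, a chaperone that feeds back on the receptor, had 8.46, 8.58 and 8.88 TPM in Mock and 64.0, 72.4 and 63.3 TPM in FDMn, 7.71-fold higher (adjusted p = 2.51e-07). Klf15, a regulator of amino acid breakdown, was 10.3-fold higher at 36.5 to 40.0 TPM in FDMn. Tsc22d3, which encodes GILZ, Zbtb16 and Klf9, chosen after their values were seen, were 5.96-fold, 4.50-fold and 2.40-fold higher. In each of these 6 genes every FDMn library lay above every Mock library.

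Glul, Nfkbia and Angptl4 were the 3 glucocorticoid targets below Mock. Nfkbia, which encodes the NF-kB inhibitor IkBa, fell from 44.1, 42.9 and 42.5 TPM to 19.8, 23.3 and 27.9 TPM (log2 difference −0.85, adjusted p = 0.000699). Angptl4, which inhibits lipoprotein lipase, fell from 51.4, 64.4 and 50.2 TPM to 40.7, 37.1 and 37.5 TPM (log2 difference −0.51, adjusted p = 0.0047). Pdk4, the kinase that turns off pyruvate dehydrogenase in fasting, was chosen after its values were seen and measured 7.04 TPM in Mock and 9.90 TPM in FDMn (adjusted p = 0.0728, and 0.0271 to 0.0285 under the 2 other scalings and without Mock replicate 3).

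FOXO targets, which insulin represses, were also mostly above Mock: of 22 tested, 13 were higher, 3 lower and 6 did not pass, with a median log2 difference of 0.53. Igfbp1, a secreted binder of insulin-like growth factors, was at 23.9, 25.7 and 30.8 TPM in Mock and 274, 287 and 273 TPM in FDMn, 10.4-fold higher (log2 difference 3.34 ± 0.09, adjusted p = 2.36e-07). Irs2, the insulin receptor substrate of the fasted liver, had 3.73, 2.63 and 3.12 TPM in Mock and 10.1, 10.2 and 10.7 TPM in FDMn, 3.28-fold higher (adjusted p = 7.32e-05). Foxo1 itself was 3.76-fold higher at 19.4 to 20.2 TPM in FDMn (adjusted p = 6.19e-06). Below Mock, beside Cited2, were Sesn3, a stress-induced regulator of TORC1, which fell from 10.7, 8.16 and 9.51 TPM to 4.35, 3.71 and 3.55 TPM (log2 difference −1.10, adjusted p = 0.000366), and Gadd45a. Gadd45a had 102, 116 and 85.3 TPM in Mock and 70.6, 83.6 and 75.9 TPM in FDMn (log2 difference −0.39, adjusted p = 0.0258), and that call was lost under 8 alternatives, both other scalings among them.

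Genes of insulin signalling showed little common direction. Of 23 tested, 4 were higher, 5 lower and 14 did not pass, with a median of 0.00, and with median-of-ratios scaling 3 were lower. Besides the higher Irs2 and Foxo1, the regulatory subunit of PI3 kinase (Pik3r1) fell from 42.4, 39.7 and 44.1 TPM to 12.3, 14.8 and 15.2 TPM (log2 difference −1.52, adjusted p = 1.43e-05). Of members chosen after their values were seen, Akt1 (log2 difference −0.56), Akt2 (−0.51, adjusted p = 0.0111, and 0.0585 with median-of-ratios scaling) and Inppl1 (−0.66) were lower, and the receptor gene Insr measured 21.1 TPM in Mock and 22.1 TPM in FDMn (adjusted p = 0.531).

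Genes of glucose use were mostly above Mock as well. Of the 17 tested genes of glycolysis and glycogen, 10 were higher, 2 lower and 5 did not pass, with a median of 0.34, and both lower calls were lost with median-of-ratios scaling. Quantile normalization, a stricter filter and leaving out FDMn replicate 3 each left 1 lower. Ppp1r3b, a glycogen-targeting subunit of phosphatase 1, was 3.40-fold, Ugp2 1.98-fold and Pfkl 1.88-fold higher. Pfkfb3, chosen after its values were seen, was 5.54-fold higher at 28.6 to 37.1 TPM.

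Of 24 genes of fatty acid oxidation and ketone synthesis, 8 were higher, 8 lower and 8 did not pass, with a median of −0.04 (10 higher and 6 lower with median-of-ratios scaling). Ppara, the nuclear receptor that drives oxidation in fasting, had 1.93, 1.96 and 2.51 TPM in Mock and 27.0, 31.7 and 33.1 TPM in FDMn, 14.4-fold higher (log2 difference 3.34 ± 0.12, adjusted p = 9.02e-07). Cpt1a, which brings long-chain fatty acids into mitochondria, had 19.1 to 20.3 TPM in Mock and 121 to 129 TPM in FDMn, 6.29-fold higher (adjusted p = 9.56e-08). Both stood clear of Mock. The lipid droplet coat gene Plin2 fell by 0.55 on the log2 scale, and of members chosen after their values were seen, the ketone-body dehydrogenase Bdh1 fell by 0.65 and the pantetheinase Vnn1 by 1.08.

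Of 18 genes of fatty acid synthesis, 3 were higher and 7 lower with a median of −0.21, but 5 were higher and 4 lower with either other scaling. Srebf1, the insulin-driven regulator of fat synthesis, measured 30.5 TPM in Mock and 22.9 TPM in FDMn (log2 difference −0.40, adjusted p = 0.159), and fatty acid synthase (Fasn) 23.7 and 18.5 TPM (−0.33, adjusted p = 0.0949). Neither passed. Without Mock replicate 3 or FDMn replicate 1, Srebf1 passed (−0.60 and −0.61, adjusted p = 0.0475 and 0.0389), as did Fasn without Mock replicate 1 (−0.44, adjusted p = 0.0456). Past the test were the desaturase Fads2 and malic enzyme (Me1), which fell by 0.66 and 0.49, and the phosphatidate phosphatase Lpin1 and Dgat2, which were 3.56-fold and 1.58-fold higher. Of 26 cholesterol genes, 7 were higher and 8 lower (against 32.5% of all genes) with a median of −0.10, Pmvk being 4.26-fold higher. Of 17 cytochrome P450 and drug metabolism genes, 7 were higher and 3 lower with a median of 0.10. Cyp2b10, a target of the receptor CAR, led them at 58.6 to 65.6 TPM against 5.87 to 7.82 TPM in Mock, 8.76-fold.

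**Figure D4:**
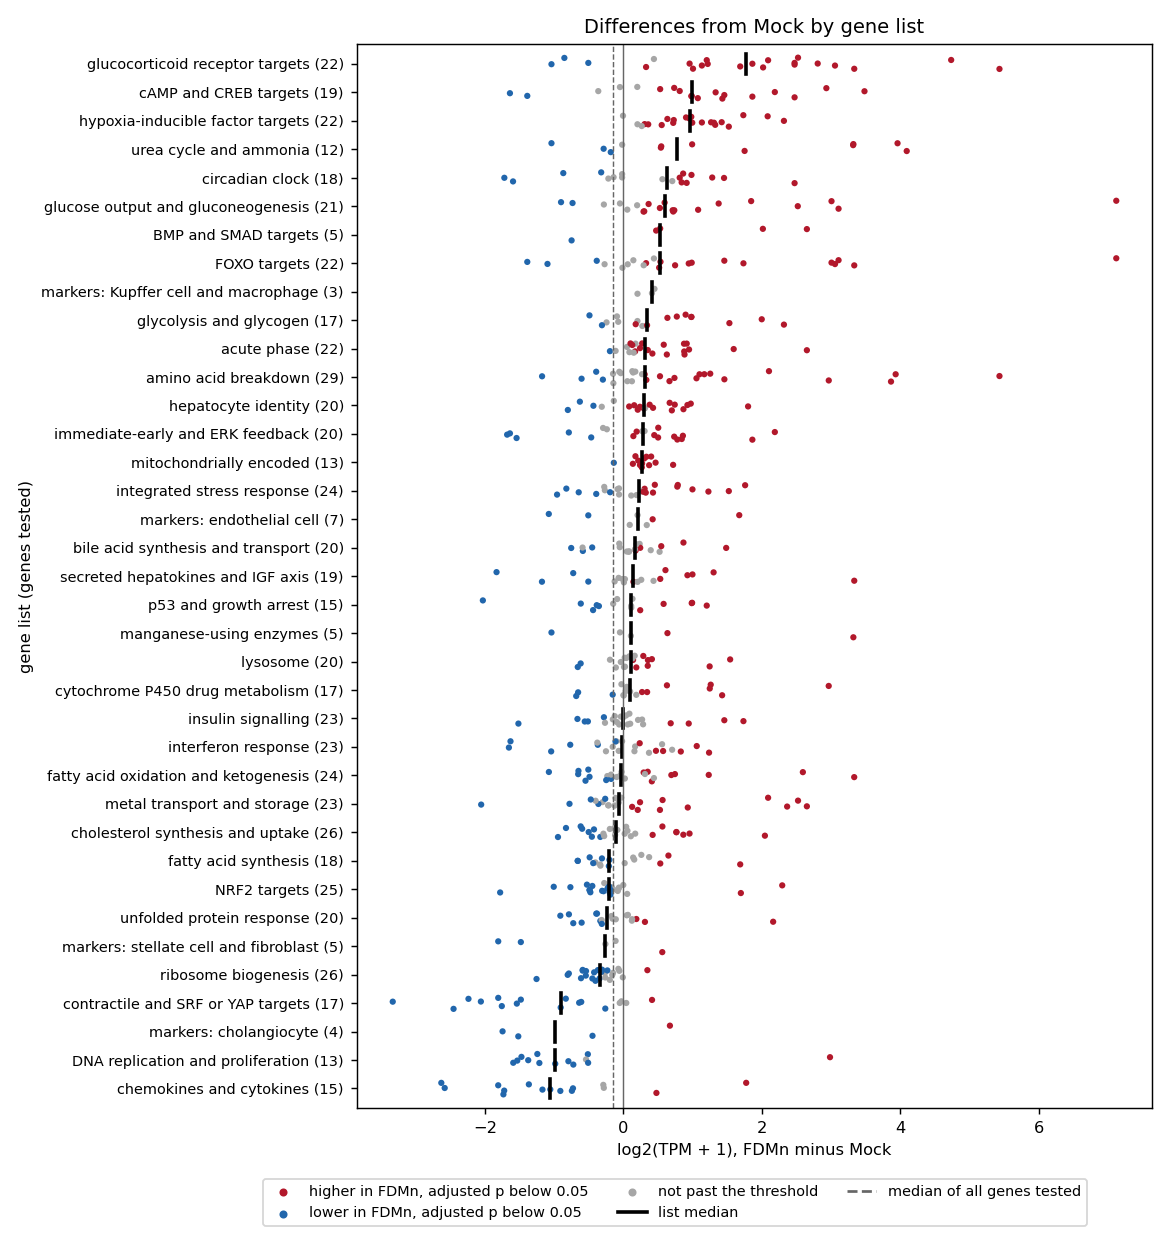
Log2 difference (FDMn minus Mock, log2(TPM + 1)) of every gene tested in each gene list, one point per gene, with the number tested in brackets, a bar at the list median and a dashed line at the median of all genes. Lists are ordered by median, from glucocorticoid receptor targets at 1.78 to chemokines and cytokines at −1.06; lists share some genes.

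Genes of metal handling stood apart at a few points. Of 23 tested, 10 were higher, 5 lower and 8 did not pass, and their median was −0.07 (0.09 with median-of-ratios scaling, with 3 lower). The metallothioneins, which bind zinc and copper and are induced by metals and by glucocorticoids, were both higher. Mt1 was at 883, 874 and 957 TPM in Mock and 3773, 3781 and 4010 TPM in FDMn, 4.26-fold higher (log2 difference 2.09 ± 0.05, adjusted p = 9.56e-08). Mt2 was at 303, 277 and 344 TPM in Mock and 1693, 1829 and 1788 TPM in FDMn, 5.74-fold higher (adjusted p = 3.43e-07). The 2 genes are close copies, so the split of reads between them is uncertain. They also belong to the glucocorticoid list, so hormone and metal cannot be told apart for them.

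Genes of manganese and iron transport followed. Slc39a14, which imports manganese, zinc and iron at the hepatocyte surface, was at 42.2, 43.4 and 48.4 TPM in Mock and 232, 250 and 222 TPM in FDMn, 5.24-fold higher (adjusted p = 3.42e-07). Slc30a10, the manganese exporter, stayed below the filter with 0.0837, 0.0111 and 0.0517 TPM in Mock and 0.433, 0.193 and 0.254 TPM in FDMn, so no test was made. Hamp, which encodes hepcidin, the hormone that closes cellular iron export (chromosome 7, 30942368 to 30944032), was at 5.37, 7.20 and 6.14 TPM in Mock and 44.0, 48.4 and 40.5 TPM in FDMn. It was 7.11-fold higher, with a log2 difference of 2.65 ± 0.12 (adjusted p = 2.02e-06). Slc40a1, ferroportin, the iron exporter that hepcidin acts on (chromosome 1, 45908068 to 45926523), fell from 43.1, 38.5 and 44.2 TPM to 8.91, 9.15 and 9.88 TPM (log2 difference −2.06 ± 0.08, adjusted p = 1.54e-06). The importer Tfrc, transferrin receptor 1, had 18.5, 21.7 and 21.2 TPM in Mock and 34.4, 39.5 and 46.5 TPM in FDMn, 1.96-fold higher (adjusted p = 0.000509). For each of these tested transporters and for Hamp the groups were fully separated.

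Of BMP and SMAD targets, the pathway that drives hepcidin, 5 of 9 were tested and 4 were higher and 1 lower, with a median of 0.53. Hamp itself is in this list and among the higher members. The higher count was 2 with no filter (which tested 9 and gave 2 lower) and without Mock replicate 2, Mock replicate 3, FDMn replicate 1 or FDMn replicate 2. Id2 had 21.8, 20.7 and 20.3 TPM in Mock and 84.4, 89.0 and 89.7 TPM in FDMn (4.19-fold, adjusted p = 3.42e-07), and the inhibitor Smad7 fell by 0.75. Among 5 manganese-using enzymes tested, with a median of 0.11, Arg1 and the galactosyltransferase B4galt1 (1.58-fold) were higher and Glul was lower. Mitochondrial superoxide dismutase (Sod2) measured 168 TPM in Mock and 181 TPM in FDMn (log2 difference 0.11, adjusted p = 0.0582). Sod2 passed as higher with median-of-ratios scaling (0.27, adjusted p = 0.00119), quantile normalization (0.21, adjusted p = 0.00443), no filter (adjusted p = 0.0344) and TPM rescaled without mitochondrially encoded genes (adjusted p = 0.017). Pcx, the other member that did not pass, is described above.

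**Figure D5:**
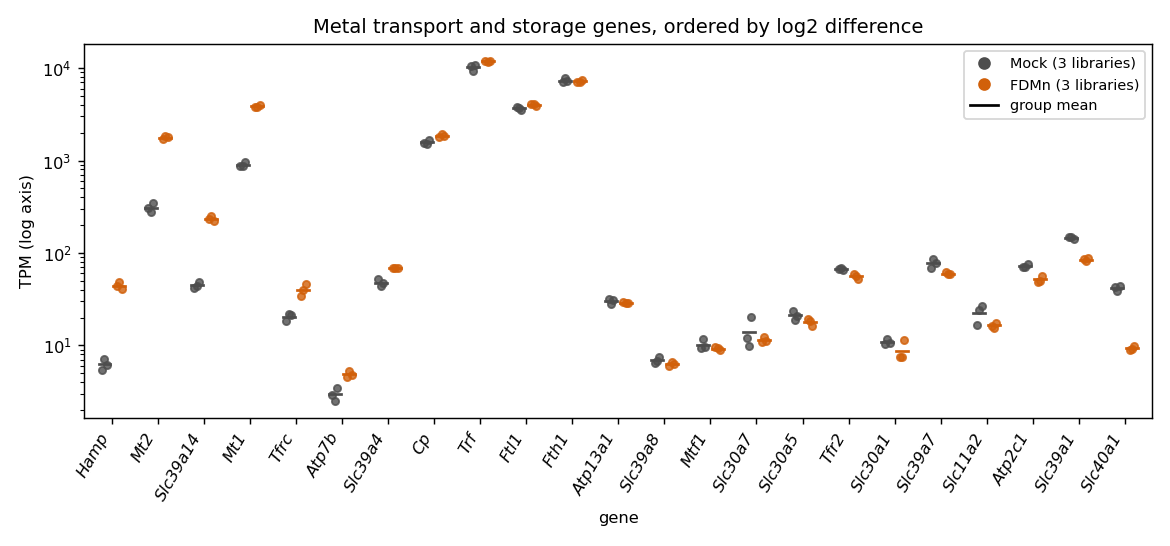
TPM on a log axis for the 23 tested genes of metal transport and storage, one point per library and a bar at each group mean, ordered by log2 difference from the highest (left) to the lowest (right). Hamp, Mt2, Slc39a14 and Mt1 stand 4.26-fold to 7.11-fold above Mock at the left, and Slc40a1 stands alone far below it at the right.

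Stress programs differed from one another. Of 24 genes of the integrated stress response, through which ATF4 answers amino acid shortage and other stresses, 11 were higher, 5 lower and 8 did not pass, with a median of 0.23. The lower count was 3 with either other scaling and without FDMn replicate 3. Cebpb, which fasting hormones also induce, had 63.0, 62.7 and 58.2 TPM in Mock and 174, 177 and 183 TPM in FDMn (2.90-fold). Vldlr was 3.86-fold, the glutathione-degrading enzyme Chac1 2.45-fold and Gdf15 2.06-fold higher. Ddit3, which encodes the ATF4-induced factor CHOP, measured 34.6 TPM in Mock and 38.6 TPM in FDMn (adjusted p = 0.418, and 0.0114 without Mock replicate 1). Of members chosen after their values were seen, Atf4 was 1.23-fold higher, while Trib3 (adjusted p = 0.316) and Asns (adjusted p = 0.615) did not pass and the serine-synthesis genes Psat1 and Phgdh and the amino acid transporter Slc7a5 fell by 0.65, 0.83 and 0.96 on the log2 scale.

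Of 20 genes of the unfolded protein response, which adjusts the folding capacity of the endoplasmic reticulum, 3 were higher, 9 lower (against 32.5% of all genes) and 8 did not pass, with a median of −0.24 against −0.15 for all genes. With median-of-ratios scaling 4 were higher and 7 lower, with a median of −0.08. The chaperone Hspa5 fell from 757, 762 and 733 TPM to 390, 406 and 400 TPM (log2 difference −0.91, adjusted p = 1.31e-06), Calr fell by 0.79 and Pdia4 by 0.72. Herpud1, of reticulum-associated degradation, was the exception in size, with 47.0, 42.7 and 44.4 TPM in Mock and 206, 213 and 192 TPM in FDMn (4.56-fold, adjusted p = 2.63e-07).

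Targets of NRF2, the regulator of the response to oxidants, had a median near the shift of all genes but more lower calls than all genes had. Of 25, 2 were higher (against 12.5% of all genes) and 15 lower (against 32.5%), with a median of −0.21 against −0.15 for all genes. With median-of-ratios scaling 4 were higher and 7 lower, and with quantile normalization 9 were lower. The 2 higher members were large. Gclc, the catalytic subunit that limits glutathione synthesis, had 133, 126 and 145 TPM in Mock and 671, 653 and 665 TPM in FDMn (4.93-fold, adjusted p = 1.53e-07), and Srxn1, sulfiredoxin, was 3.26-fold higher at 499 to 551 TPM. Gclm, the modifier subunit of the same enzyme as Gclc and chosen after its values were seen, had a log2 difference of −0.29, lost with median-of-ratios scaling (−0.12, adjusted p = 0.0942). Osgin1, which oxidants and growth arrest induce, fell from 1212, 1483 and 1063 TPM to 379, 339 and 364 TPM (log2 difference −1.78, adjusted p = 1.39e-05).

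Hypoxia-inducible factor targets stood together above Mock. Of 22 tested, 19 were higher and 3 did not pass, with a median of 0.97, and no member was lower by limma at the adjusted threshold or at an unadjusted p below 0.05. Vegfa, the vascular growth factor, had 79.7, 91.9 and 82.9 TPM in Mock and 227, 229 and 228 TPM in FDMn (2.69-fold, adjusted p = 1.69e-06). The glucose transporter Slc2a1 was 2.54-fold higher. Lactate dehydrogenase A (Ldha) was 1.97-fold higher. Of members chosen after their values were seen, Adm was 3.51-fold, the mitophagy gene Bnip3 2.42-fold and the pyruvate dehydrogenase kinase Pdk1 1.96-fold higher, and the 3 that did not pass were Hk2 (adjusted p = 0.246), P4ha2 (adjusted p = 0.0581) and Mxi1 (adjusted p = 0.956). P4ha2 passed as higher with either other scaling (adjusted p = 0.0091 and 0.0119). No group had manganese, forskolin or dexamethasone alone in these 6 libraries, so the agent behind this group was not tested.

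Growth, contractile and cytokine genes stood mostly below the untreated cells. The lowest log2 difference under the naming rule was that of Sox4, a transcription factor gene active in progenitors and regenerating tissue (chromosome 13, 28948919 to 28953713), which fell from 51.0, 47.6 and 51.0 TPM to 3.93, 3.73 and 3.70 TPM (log2 difference −3.41 ± 0.08, adjusted p = 1.06e-07). Cnn1, calponin of the actin cytoskeleton, fell from 28.3, 28.6 and 25.1 TPM to 1.26, 2.13 and 2.12 TPM (log2 difference −3.33 ± 0.15, adjusted p = 2.18e-06). Of 17 contractile genes and targets of SRF or YAP, 13 were lower, 1 was higher and 3 did not pass, with a median of −0.91. The higher member, Thbs1, chosen after its values were seen, lost its call with no filter and without any library but Mock replicate 2 (adjusted p from 0.0503 to 0.0704). Myl9 fell by 2.45, Tagln by 1.81, the YAP target Ccn1 by 1.76 and Tpm2 by 1.54, and Ankrd1 and Acta1, chosen after their values were seen, by 2.24 and 2.06. Tagln and Acta2 are also stellate cell markers, a list whose summed level fell as given above. Of its 5 tested members, these 2 were lower, 1 was higher and 2 did not pass. The higher member, Dcn, had means of 1.61 TPM in Mock and 2.87 TPM in FDMn (log2 difference 0.56). That call was lost with no filter and without Mock replicate 2, FDMn replicate 2 or FDMn replicate 3. The defining markers Lrat, Des and Pdgfrb were near 0 in both groups, overlapped between them and were not tested. Their means were 0.0396, 0.207 and 0.0577 TPM in Mock and 0.0292, 0.0290 and 0 TPM in FDMn. The part of other cells in these differences was not tested.

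Cytokine genes showed the lowest list median, −1.06. Of 15 tested, 11 were lower, 2 higher and 2 did not pass. The interferon-induced chemokine Cxcl10 fell from 19.6, 19.6 and 20.1 TPM to 1.81, 3.16 and 2.22 TPM (log2 difference −2.63). Csf1, the macrophage growth factor, fell from 80.7, 100 and 82.2 TPM to 13.7, 13.6 and 14.0 TPM (log2 difference −2.58), and the interleukin-1 antagonist Il1rn by 1.72. Ccl2, the monocyte chemokine and the most abundant of these, was chosen after its values were seen and fell from 480, 545 and 476 TPM to 189, 166 and 230 TPM (log2 difference −1.37, adjusted p = 5.97e-05). The 2 higher members, also chosen after their values were seen, were Cxcl2 (6.14-fold, from 0.330 to 1.35 TPM in Mock to 3.66 to 7.42 TPM in FDMn) and Cxcl9 (1.40-fold, adjusted p = 0.0576 with no filter). Acute phase genes, secreted by hepatocytes under interleukin-6 and glucocorticoids, went the other way: 16 of 22 were higher and 1 lower, with a median of 0.31. The lower call was lost with no filter, with median-of-ratios scaling and without Mock replicate 1, Mock replicate 3, FDMn replicate 1 or FDMn replicate 3. Lcn2 was at 2048 to 2349 TPM in FDMn against 664 to 767 TPM in Mock (3.02-fold), Crp was 1.86-fold higher, and the 3 fibrinogen genes Fga, Fgb and Fgg, chosen after their values were seen, were 1.90-fold, 1.94-fold and 1.85-fold higher.

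Of 13 tested genes of DNA replication and proliferation, 11 were lower, 1 was higher and 1 did not pass, with a median of −0.99. The helicase subunits Mcm6 (37.3, 36.0 and 40.4 TPM in Mock; 13.6, 15.2 and 13.2 TPM in FDMn), Mcm4 and Mcm3 fell by 1.38, 1.47 and 1.21, and Mcm5 and Mcm7, chosen after their values were seen, by 1.59 and 1.24. The exception was Rrm2, the ribonucleotide reductase subunit, with 0.698, 2.02 and 1.71 TPM in Mock and 17.2, 22.1 and 15.5 TPM in FDMn (12.4-fold, log2 difference 2.99 ± 0.23, adjusted p = 4.29e-05). Of 26 ribosome biogenesis genes, 17 were lower and 1 higher with a median of −0.33, and 11 were lower and 3 higher with median-of-ratios scaling. Dkc1, the pseudouridine synthase dyskerin, fell by 1.26 and Gar1 of the same particle by 0.81. Of 20 immediate-early and ERK feedback genes, 11 were higher and 5 lower with a median of 0.29, with Phlda1 and Ier3 lower by log2 differences of −1.68 and −1.54.

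Hepatocyte genes stood above Mock. Of 20 identity genes, 14 were higher, 3 lower and 3 did not pass, with a median of 0.30 (9 higher with no filter, and 9 with no intensity trend). The nuclear receptor Hnf4a, which maintains the hepatocyte program and works with Ppargc1a at gluconeogenic genes, had 51.0, 51.8 and 53.5 TPM in Mock and 181, 187 and 184 TPM in FDMn (3.53-fold, log2 difference 1.80 ± 0.05, adjusted p = 2.01e-07). Foxa2 was 2.00-fold and the secreted glycoprotein Ahsg 1.90-fold higher. Albumin (Alb) was at 25423 to 26302 TPM in Mock and 27023 to 27728 TPM in FDMn, a log2 difference of 0.08 (adjusted p = 0.0377), a call lost under 11 alternatives. Below Mock, among members chosen after their values were seen, were the transcription factors Foxa1 and Nr5a2, which fell by 0.63 and 0.80. Of 13 genes encoded in mitochondria, 12 were higher and 1 lower, with a median of 0.27, and the lower call was lost with both other scalings.

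The remaining lists were mixed, and their counts stand beside 12.5% of all genes higher and 32.5% lower. Of 15 genes of p53 and growth arrest, 5 were higher and 5 lower with a median of 0.11, and 8 were higher with median-of-ratios scaling. The cell-cycle inhibitor Cdkn1a was at 122, 120 and 111 TPM in Mock and 277, 261 and 277 TPM in FDMn (2.31-fold), and the stress gene Gadd45b fell from 40.4, 34.7 and 43.5 TPM to 8.54, 10.0 and 8.19 TPM (log2 difference −2.03). Of 23 interferon response genes, 6 were higher and 6 lower with a median of −0.02, and 10 were higher under median-of-ratios scaling and 3 with no filter. Usp18, which dampens interferon signalling, was 2.48-fold higher, and Irf1 and the GTPase gene Ifi47 fell by 1.63 and 1.66. Of 20 lysosomal genes, 8 were higher and 2 lower with a median of 0.11, and 15 were higher with median-of-ratios scaling. Gla, alpha-galactosidase, was 3.28-fold and Cd68 2.38-fold higher, and the autophagy receptor Sqstm1 fell by 0.66. Of 20 bile acid genes, 5 were higher (3 without FDMn replicate 3) and 3 lower, with a median of 0.17. The nuclear receptor Nr1h4 was 1.85-fold and Acox2 2.87-fold higher, and the phospholipid exporter Abcb4 was lower by 0.59 (log2 difference −0.59). Of 19 secreted liver factors and genes of the IGF axis, 7 were higher and 4 lower with a median of 0.14 (11 higher with median-of-ratios scaling). The activin subunit Inhba and Socs2 fell by 1.83 and 1.18.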

How the data were processed

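The submitters' processing notes name kallisto 0.44.0, GRCm38.p6 and DESeq2, with no role given. The authors deposited 1 table of gene-level TPM with 36144 rows, in which each column totals 1000000. The sources used here do not give the annotation, whether counting used strand or how transcripts were summed, so antisense or overlapping partners and near-identical copies (Saa, Orm, Serpina3 and Gstm genes) cannot be told apart. TPM keeps no depth, so the depth per sample is unknown and no counting interval or floor is given. Columns were matched to samples by library name, and groups came from the treatment labels.

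Tested genes reached a TPM of 1 in 3 or more of the 6 libraries. The values deposited as TPM were converted to log2(TPM + 1), a scale that understates the change of low genes, and fitted with limma 3.58.1 (R 4.3.3) with an intensity trend, two-sided, with Benjamini-Hochberg adjustment over 11192 genes and a threshold of 0.05. Every adjusted p comes from that fit unless another setting is named, and folds are ratios of group mean TPM. With 3 libraries against 3, an exact permutation test could not go below p = 0.1, so none was used. Coordinates come from GENCODE M21 (GRCm38), which matched 35933 symbols (99.4%). Tested on simulated data with 200 of 11192 genes changed, the fit recovered 52.3% of 1.5-fold, 89.6% of 2-fold and 97.1% of 4-fold changes, with 6.43% of calls false. All changed genes were raised there, and the others had no shift between groups. In the data 45.1% of genes were called and the median of all genes was shifted, so these shares need not hold for this comparison.

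The comparison, the 38 gene lists and the naming rule were chosen with earlier results of these data known, and lists share genes. The rule takes 21 fixed genes, the 10 highest and 10 lowest log2 differences among called genes with a mean TPM of at least 5 in 1 group and no overlap between groups, up to 4 members per list with the smallest adjusted p, and fasting list members below Mock; a few genes it takes are not reported here. The alternatives were other pseudocounts, filters and scalings, the replicate number as a block, no intensity trend, a fit of 9 libraries with the insulin group, and leaving out each library.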

Additional observations from a re-analysis of the deposited data

How the results depend on the processing

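The counts of genes higher (1403) and lower (3639) moved by over 1.5 times with scaling alone: 2230 and 2146 with median-of-ratios scaling, and 2386 lower with quantile normalization, which gave 2013 higher. The other settings, pseudocounts of 0.1 and 5, both filters, TPM rescaled without mitochondrially encoded genes, no intensity trend and a fit of 9 libraries, gave 1226 to 1557 higher and 3148 to 3751 lower. Leaving out 1 library gave 1129 to 1329 higher and 2965 to 3376 lower. With the replicate number as a block, 1294 were higher and 3346 lower. Same-numbered libraries did not deviate together (r of −0.0274, −0.0247 and 0.0338). With 3 libraries in each group, that cannot tell whether the numbers pair the samples. No named gene reversed its direction while called.

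The fasting lists together gave 68 to 72 higher and 11 to 15 lower members when 1 library was left out. Urea cycle members below Mock numbered 1 with median-of-ratios scaling. TPM holds no reads, so counting error could not be separated from the spread between libraries.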

Other observations

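The following genes and groups were chosen after their values were seen, except the clock list with Nr1d1, Nr1d2 and Rora, and Nrg4. Several liver genes outside the lists stood well above Mock. Adh1, the alcohol dehydrogenase, was at 83.7, 77.8 and 81.0 TPM in Mock and 641, 620 and 634 TPM in FDMn (7.81-fold, limma adjusted p = 1.36e-08). Agt, angiotensinogen, was 4.57-fold higher at 312 to 321 TPM, and Uox, the urate oxidase that ends purine breakdown, 4.30-fold higher at 422 to 438 TPM. The arginine transporter Slc7a2 was 8.09-fold, the interleukin-6 receptor Il6ra 5.28-fold and the aromatic amino acid decarboxylase Ddc 6.57-fold higher. The growth factor gene Nrg4, taken by the naming rule, was at 3.31, 1.95 and 6.77 TPM in Mock and 70.2, 73.2 and 80.7 TPM in FDMn (18.6-fold).

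Several genes of NF-kB signalling were below Mock beside Nfkbia. Nfkb1, a subunit of the factor, fell from 40.4, 48.5 and 44.0 TPM to 14.8, 13.3 and 13.2 TPM (log2 difference −1.61, adjusted p = 7.89e-06). The inhibitor gene Nfkbie fell by 1.92, the adhesion molecule Icam1 by 1.94 and the receptor Tlr2 by 1.58. The growth factor genes Tgfb2, Pdgfb and Bmp4 fell by 1.89, 2.10 and 1.61, whereas Vegfa and Nrg4, also growth factor genes, were higher as given above. The caveolin Cav1 fell by 1.99.

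Of 18 tested clock genes, 8 were higher, 4 lower and 6 did not pass, with a median of 0.63. The repressors Nr1d1 (17.1, 20.7 and 17.2 TPM in Mock; 4.08, 5.52 and 5.03 TPM in FDMn) and Nr1d2 fell by 1.72 and 1.60 on the log2 scale, while Rora, which acts on the same elements as an activator, was 2.87-fold, Cry2 2.58-fold, Per2 2.08-fold and Arntl 1.85-fold higher.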
